A study of Homo sapiens with 18 samples.

Results

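The transforming growth factor-β (TGF-β) superfamily was examined through 10 genes, 8 secreted ligands (GDF15, INHBE, INHBA, TGFB1, TGFB2, BMP2, BMP4 and GDF11) and 2 secreted binders of activins and related ligands (FST and FSTL3), out of 26668 gene symbols in the expression table. The genes were found by symbol, and all 10 were present. They were selected on measured values, the knockdown against control contrasts of these libraries, GDF15 and INHBE for their rise in MIA PaCa-2 and TGFB2 for its rise in PATU8988T. Their changes are therefore given as a description, with no p-value. Where one of them is said to be past the threshold, this places its value against the calling rule applied to all genes and is not evidence of a change. Selection used the same contrasts that are described here, so nothing is inferred from how many of them moved.

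Expression was measured by RNA-seq in PANC1, MIA PaCa-2 and PATU8988T, established human pancreatic cancer cell lines, with 3 control and 3 OFD1 knockdown libraries in each line and 18 libraries in all. OFD1 encodes a protein of centrioles and centriolar satellites. Knockdown cells carried a doxycycline-inducible (Tet-on) shRNA against OFD1 and received doxycycline for 72 h. Controls were titled shControl and labelled as wild type without treatment, whereas in the methods the untreated arm is the inducible shOFD1 line with DMSO, so it was not settled whether the controls carried the OFD1 shRNA. Doxycycline was given to all knockdown libraries and to no control library, and its own effect cannot be told apart from that of the shRNA. The series text places controls at day 0, in which case time in culture cannot be told apart either. The shRNA used for RNA-seq was not named, and nothing stated that replicates came from separate cultures, so p-values measure the spread between these libraries. The source labels of PATU8988T replicates 2 and 3 carry other line names, and the titles were followed.

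Ligands of this superfamily are made as precursors, cleaved by furin-like proteases and secreted as dimers. TGF-βs and activins bind type II and type I serine/threonine kinase receptors and signal through SMAD2 and SMAD3, BMPs through SMAD1, SMAD5 and SMAD9, and SMAD4 is the shared partner. Of the target genes, PMEPA1 is typical of the TGF-β branch and ID1, ID2 and ID3 of the BMP branch. GDF15 is a distant member that binds GFRAL, a receptor of the hindbrain, and INHBE encodes the activin βE subunit, best known from liver. Both are known as genes induced in cellular stress, GDF15 through ATF4, CHOP and p53 and INHBE through ATF4. In pancreatic cancer, TGF-β signalling is known for frequent loss of SMAD4.

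The promoters of GDF15 and TGFB2 are shown because these genes, with INHBE, passed the threshold used below. Of the 10 genes, 8 had entries in the RefSeq promoter table of GRCh38.p14, and INHBE and BMP2 had none there. Each entry holds 250 bases before and 50 bases after the start, written 5′ to 3′, and capitals mark matches to the motifs searched. GDF15 is at chr19:18385908-18386207 on the plus strand and TGFB2 at chr1:218345086-218345385 on the plus strand.
GDF15: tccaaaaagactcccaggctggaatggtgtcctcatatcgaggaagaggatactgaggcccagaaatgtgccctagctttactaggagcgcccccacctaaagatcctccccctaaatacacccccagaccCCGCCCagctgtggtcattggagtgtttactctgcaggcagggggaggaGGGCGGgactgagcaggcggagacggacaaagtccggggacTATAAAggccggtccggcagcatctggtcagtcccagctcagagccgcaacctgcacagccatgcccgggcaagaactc
TGFB2: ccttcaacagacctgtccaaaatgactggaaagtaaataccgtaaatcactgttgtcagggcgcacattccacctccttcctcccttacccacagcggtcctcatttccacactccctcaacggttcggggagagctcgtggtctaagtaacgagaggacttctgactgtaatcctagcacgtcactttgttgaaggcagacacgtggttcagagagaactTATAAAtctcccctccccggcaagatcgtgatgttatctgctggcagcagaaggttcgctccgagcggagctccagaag

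In both promoters TATAAA, the TATA box letters, began 29 bases before the start. Either strand was searched, and 11.5% of 35116 promoters of this length held these letters. GDF15 also had GGGCGG, the GC box letters, on the minus strand at 119 bases and on the plus strand at 70 bases before the start, which 45% of promoters held. Neither promoter held TGATGNAA, the composite of C/EBP and ATF sites found in 3.62% of promoters, TGACGTCA, the cyclic AMP response element found in 1.85%, or TGANTCA, the AP-1 letters found in 7.71%. Of the 8 genes with an entry, FST had an AP-1 match. These matches describe letters in a window and are not binding sites.

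Library depth, recovered from the FPKM values as whole reads, was between 32486479 and 39797537 reads. FPKM is the number of reads on a gene per kilobase of its length and scaled by the reads of the library. Among the 10 genes, the lengths behind the FPKM differed between PANC1 and PATU8988T columns for TGFB1, GDF11, BMP4 and FST, so levels in different lines are set side by side but were not tested. OFD1 was lower in every knockdown library of each line. Its log2 fold change was -1.07 in PANC1 and -0.61 in MIA PaCa-2 (limma, adjusted p = 2.7e-06 and 0.0232). The MIA PaCa-2 value did not reach a 2-fold change. Its adjusted p was above 0.05 in 5 of 6 fits that left out a library. In PATU8988T OFD1 was at 2.06 FPKM in control and 0.911 FPKM in knockdown, a log2 fold change of -1.10. There it passed the 1 FPKM filter given below only through its control libraries. It so had to differ, and no p is given. MIA PaCa-2 control replicate 2 stood apart from the other controls, at a chi-square per degree of freedom of 130 and 132 against 3.06 between the other controls. For named genes, MIA PaCa-2 changes are given with and without it where it moved a call or an adjusted p across 0.05. Counts over lists are given without it only where stated. Of the epithelial markers, KRT8 was at 362.7 FPKM or more in every library, whereas EPCAM and CDH1 were at or below 0.0991 FPKM in MIA PaCa-2 and KRT19 at or below 0.0194 FPKM in PATU8988T. Lists of acinar, islet and endothelial markers had no gene with a mean of 1 FPKM in any group. The summed level of 5 fibroblast markers was 6.18 to 6.86 FPKM in MIA PaCa-2 control and 29.7 to 30.8 FPKM in knockdown libraries, almost all from COL3A1. Of 3 leukocyte markers CD3E was at 0 in MIA PaCa-2, PTPRC was between 2.32 and 6.22 FPKM there, and the summed level was 49.3 to 67.3 FPKM in control and 73.2 to 77 FPKM in knockdown libraries. In PANC1 the leukocyte sum, almost all CD68, was 32 to 37.7 FPKM in control and 17 to 19.5 FPKM in knockdown libraries. The sum of 6 epithelial markers was 1616 to 2197 FPKM in MIA PaCa-2 control and 1359 to 1392 FPKM in knockdown, and 1045 to 1069 and 838 to 909 FPKM in PATU8988T. The part of these marker differences in the results below was not tested.

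A gene was tested in a line when its mean over the 6 libraries was at least 1 FPKM, and was called when the limma adjusted p was below 0.05 and the fold change above 2 or below 0.5. The filter was passed by 5 of the 10 genes in PANC1, by 5 in the MIA PaCa-2 line and by 6 in PATU8988T. GDF15 and INHBE in MIA PaCa-2 and TGFB2 in PATU8988T passed it only through their knockdown libraries, so they had to differ. The genes past the threshold were those 3, all higher, against 4.07% of 10758 genes called higher and 3.68% called lower in MIA PaCa-2 and 0.159% of 10698 called higher and 0.841% called lower in PATU8988T. In PANC1, where 1.75% of 10902 genes were called higher and 4.84% called lower, 0 of the 5 passed it with limma on FPKM and 0 with voom on recovered reads.

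**Figure D1:**
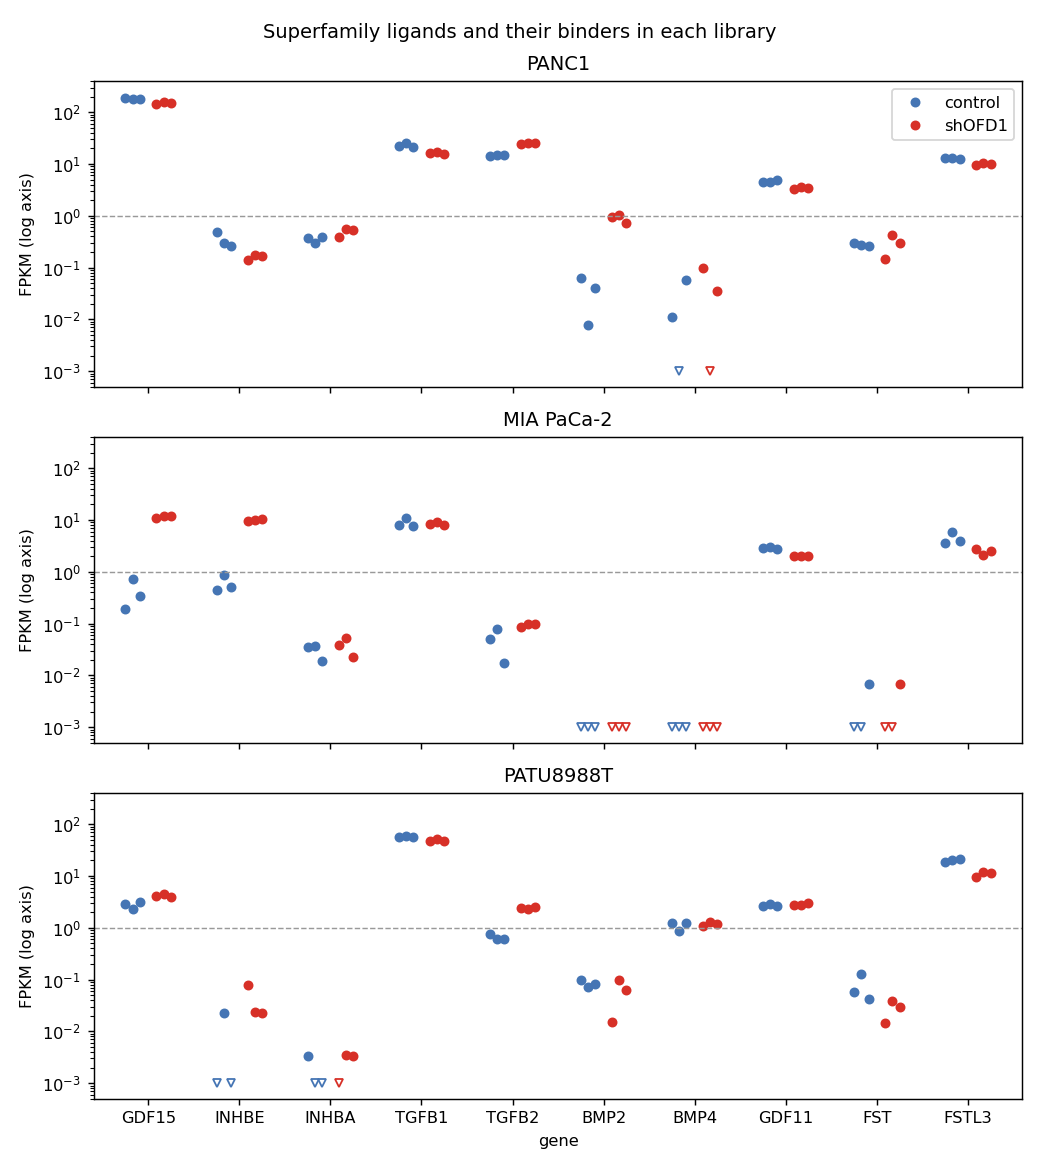
FPKM of the 10 genes in each of the 18 libraries, on a log axis, with control libraries in blue and shOFD1 libraries in red. Open triangles at the foot mark libraries listed at 0, and the dashed line is at 1 FPKM. GDF15 lies at 144 FPKM or above in every PANC1 library and at 0.731 FPKM or below in MIA PaCa-2 control.

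GDF15, growth differentiation factor 15, was the highest of the 10 genes in every PANC1 library. In PANC1 it was at 184, 184 and 183 FPKM in control and at 144, 155 and 148 FPKM in knockdown replicates 1, 2 and 3. All PANC1 knockdown libraries were below all controls, and the gene ranked 247 by control mean among 10902 genes tested. The PANC1 means were 184 ± 0.87 and 149 ± 5.5 FPKM (SD over 3 libraries), and the log2 fold change was -0.30 (SE 0.0275). In MIA PaCa-2 it was at 0.193, 0.731 and 0.343 FPKM in control, from 13, 50 and 23 reads, and at 10.9, 12 and 12.1 FPKM in knockdown, from 729, 782 and 798 reads. The libraries of MIA PaCa-2 did not overlap, and control replicate 2 was the highest control. Group means were 0.422 ± 0.278 and 11.7 ± 0.65 FPKM (SD over 3 libraries), and the log2 fold change was 4.63 (SE 0.353), or 5.03 without control replicate 2. Because of the pseudocount of 0.1 FPKM these values understate the change of a low gene, and the ratio of summed reads per library read was 27.5 (95% exact interval 22.2 to 34.5, for counting error alone). Here and below such an interval leaves out the spread between libraries, as between 13, 50 and 23 control reads, and is no test of a change. In PATU8988T GDF15 was at 2.88, 2.36 and 3.17 FPKM in control and at 4.11, 4.59 and 3.94 FPKM in knockdown, again without overlap. The log2 fold change there was 0.58 (SE 0.109), short of the threshold. GDF15 was thus lower in all knockdown libraries of PANC1 and higher in all knockdown libraries of the other lines, a difference of direction that was not tested. The gene is at chr19:18374731-18389176 on the plus strand of GRCh38, and it also holds the microRNA gene MIR3189.

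INHBE was above 1 FPKM in the MIA PaCa-2 knockdown libraries and in no other group. It was at 0.436, 0.878 and 0.52 FPKM in MIA PaCa-2 control, from 42, 86 and 50 reads, and at 9.63, 10.2 and 10.6 FPKM in knockdown, from 920, 954 and 1000 reads. The groups were far apart, and control replicate 2 was again the highest control. Control averaged 0.612 ± 0.235 FPKM and knockdown 10.1 ± 0.489 FPKM (SD over 3 libraries). The log2 fold change was 3.90 (SE 0.225), or 4.15 without control replicate 2, and the ratio of reads was 16.5 (95% exact interval 14.2 to 19.4). PANC1 did not pass the filter, at 44, 27 and 22 reads in control and 11, 14 and 14 in knockdown. All PANC1 knockdown libraries were below all controls, with a ratio of reads of 0.453 (95% exact interval 0.303 to 0.665). In PATU8988T, 0, 2 and 0 reads were counted in control and 7, 2 and 2 in knockdown, and the groups overlapped. INHBE is at chr12:57452323-57459280 on the plus strand of GRCh38, next to INHBC, which encodes the activin βC subunit. INHBC stayed at or below 0.177 FPKM in every library of the 3 lines, and its groups overlapped in each line.

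**Figure D2:**
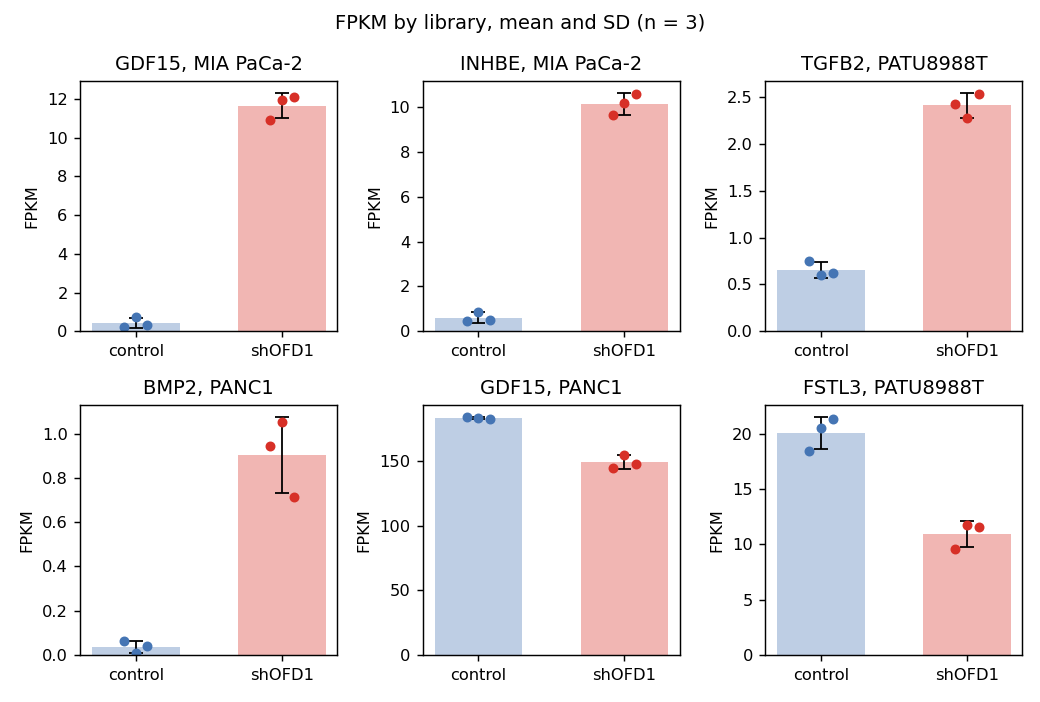
FPKM in single libraries (points) with the mean (bar) and SD (whisker) of 3 control and 3 shOFD1 libraries, for 6 pairs of gene and line on linear axes that start at 0. GDF15 and INHBE in MIA PaCa-2, TGFB2 in PATU8988T and BMP2 in PANC1 are higher in every shOFD1 library, and GDF15 in PANC1 and FSTL3 in PATU8988T are lower in every one.

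Of the TGF-β ligands, TGFB2 was higher and TGFB1 lower after knockdown in PANC1 and PATU8988T. TGFB2, TGF-β2, was at 14.6, 15.2 and 15 FPKM in PANC1 control and at 24.5, 25.3 and 26 FPKM in knockdown. The groups did not overlap, and the log2 fold change was 0.76 (SE 0.0399). In PATU8988T it was at 0.746, 0.596 and 0.617 FPKM in control, from 164, 125 and 136 reads, and at 2.43, 2.27 and 2.54 FPKM in knockdown, from 533, 470 and 549 reads. The log2 fold change was 1.74 (SE 0.114), past the threshold, and 1.89 with voom on the reads. MIA PaCa-2 had 12, 19 and 4 reads in control and 20, 22 and 22 in knockdown, below the filter. TGFB2 was thus higher in every knockdown library of all 3 lines. It is at chr1:218346235-218444619 on the plus strand of GRCh38.

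TGFB1, TGF-β1, was at 22.5, 25.6 and 21.7 FPKM in PANC1 control and at 16.6, 16.9 and 15.7 FPKM in knockdown, with a log2 fold change of -0.50 (SE 0.0613). In PATU8988T, where it was the highest of the 10 genes, it was at 58, 60.3 and 57.7 FPKM in control and at 46.5, 52.8 and 48.4 FPKM in knockdown, with a log2 fold change of -0.25 (SE 0.0495). All knockdown libraries of both lines lay below all controls. In MIA PaCa-2 the groups overlapped, at 7.90, 11.1 and 7.79 FPKM in control and 8.29, 9.24 and 8.01 FPKM in knockdown. The log2 fold change there was -0.05 (SE 0.158), or 0.11 without control replicate 2. TGFB1 (chr19:41301587-41353911, minus strand of GRCh38) overlaps HNRNPUL1, CCDC97 and TMEM91 on the other strand, and whether reads were counted by strand was not stated.

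INHBA, the activin βA subunit, was low throughout. It was at 0.377, 0.293 and 0.387 FPKM in PANC1 control and at 0.395, 0.547 and 0.532 FPKM in knockdown, higher in every knockdown library, with a ratio of reads of 1.4 (95% exact interval 1.2 to 1.63). It had 16 reads or fewer in any MIA PaCa-2 library and 1 or none in any PATU8988T library. GDF11, a ligand close to myostatin, was at 4.42, 4.41 and 4.94 FPKM in PANC1 control and 3.30, 3.59 and 3.49 FPKM in knockdown. In MIA PaCa-2 it was at 2.92, 3.02 and 2.76 FPKM in control and 2.01, 2.05 and 2 FPKM in knockdown. Knockdown libraries were the lower ones in both lines, with log2 fold changes of -0.39 (SE 0.0764) and -0.50 (SE 0.101), neither past the threshold. The PATU8988T groups overlapped, with a log2 fold change of 0.06 (SE 0.0769). GDF11 (chr12:55743280-55757278, plus strand of GRCh38) overlaps SARNP on the other strand, and its length in PANC1 columns was 1602 bases against 8801 in the others.

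BMP2 and BMP4, ligands of the BMP branch, were scarce. BMP2 was at 0.0627, 0.00763 and 0.041 FPKM in PANC1 control, from 8, 1 and 5 reads, and at 0.946, 1.05 and 0.715 FPKM in knockdown, from 109, 122 and 87 reads. The PANC1 libraries did not overlap, and the ratio of reads was 24.5 (95% exact interval 14.4 to 45.4). The gene did not reach a mean of 1 FPKM, so it was not tested. In PATU8988T it had 13, 9 and 11 reads in control and 2, 12 and 8 in knockdown, which overlap. BMP4 was at 1.24, 0.854 and 1.26 FPKM in PATU8988T control and at 1.07, 1.27 and 1.16 FPKM in knockdown, with a log2 fold change of 0.07 (SE 0.154). PANC1 had 8 BMP4 reads or fewer in any library. Both genes were listed at 0 in all MIA PaCa-2 libraries, which in this table can be a gene that was not counted.

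FSTL3, a secreted glycoprotein that binds activins and myostatin, was lower in every knockdown library of all 3 lines. It was at 12.9, 12.9 and 12.5 FPKM in PANC1 control and 9.45, 10.3 and 9.81 FPKM in knockdown, a log2 fold change of -0.37 (SE 0.0493). In MIA PaCa-2 it was at 3.54, 5.79 and 3.85 FPKM in control and 2.76, 2.12 and 2.58 FPKM in knockdown, a log2 fold change of -0.77 (SE 0.207), or -0.56 without control replicate 2. In PATU8988T it was at 18.5, 20.5 and 21.3 FPKM in control and 9.63, 11.8 and 11.5 FPKM in knockdown, a log2 fold change of -0.87 (SE 0.0821). None of these reached a 2-fold change. FST, follistatin, was below the filter in every line, with 18 to 51 reads in PANC1 libraries, 1 or none in MIA PaCa-2 and 2 to 17 in PATU8988T. Its groups overlapped in PANC1 and MIA PaCa-2, and in PATU8988T the 8, 17 and 6 reads of control lay above the 2, 5 and 4 of knockdown.

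Across the 10 genes, those below the filter included, libraries of knockdown and control did not overlap for 8 genes in PANC1, of which 3 were higher and 5 lower. The same held for 3 higher and 2 lower in MIA PaCa-2 and for 2 higher and 3 lower in PATU8988T. The shares among all tested genes that were higher without overlap were 41.7% (PANC1), 28% (MIA PaCa-2) and 27.9% (PATU8988T), and 33.4%, 31.3% and 24% were lower. These shares leave out genes below the filter, which the counts of the 10 genes include.

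**Figure D3:**
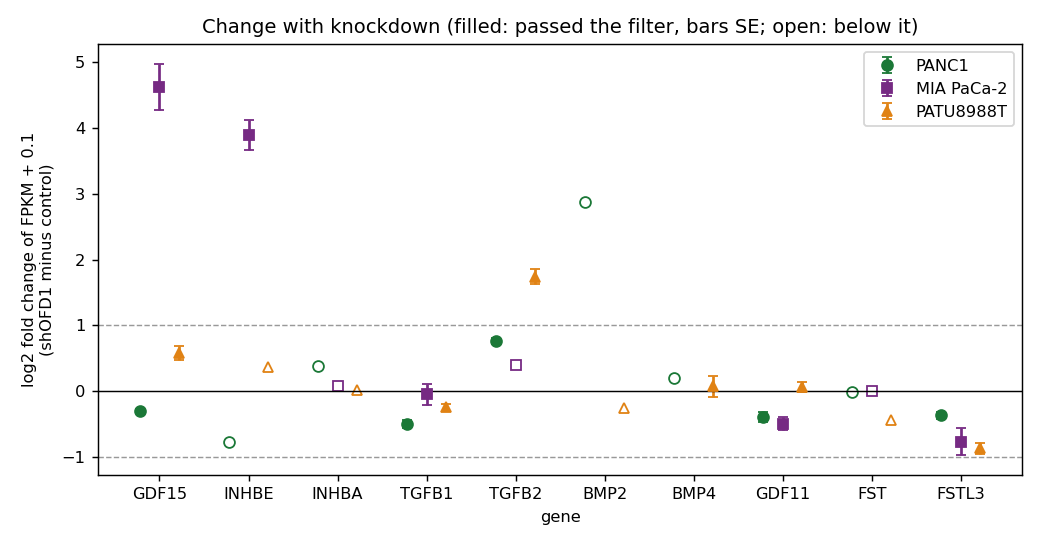
Log2 fold change of FPKM + 0.1 (shOFD1 minus control) of the 10 genes in each line. Filled symbols with SE bars passed the filter of 1 FPKM, open symbols did not, BMP2 and BMP4 have no symbol in MIA PaCa-2, and dashed lines mark a 2-fold change. GDF15 at 4.63 and INHBE at 3.90 in MIA PaCa-2 stand above the rest, and FSTL3 lies below 0 in all 3 lines.

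The order of levels in control libraries differed by line. In PANC1 it ran from GDF15, TGFB1, TGFB2 and FSTL3 to GDF11, each apart from the next, and then to INHBA, INHBE and FST, whose neighbours overlapped. In MIA PaCa-2 TGFB1 was highest, followed by FSTL3 and GDF11, and INHBE and GDF15 overlapped. In PATU8988T TGFB1 and FSTL3 were highest, and GDF15 and GDF11 overlapped. The summed FPKM of the 8 ligands was 225 to 230 in PANC1 control and 190 to 203 in knockdown, of which GDF15 made up 80.1 to 81.3% and 75.8 to 76.5%. In MIA PaCa-2 the sum was 11.5 to 15.9 FPKM in control and 31 to 33.6 FPKM in knockdown. GDF15 made up 1.67 to 4.61% of it in control and 35.3 to 36.9% in knockdown, INHBE 3.78 to 5.54% and 30.4 to 32.3%, and TGFB1 68 to 70.1% and 24.4 to 27.5%. In PATU8988T TGFB1 made up 88.1 to 89.9% in control and 81.6 to 82.7% in knockdown.

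The genes most like GDF15 over 12 libraries of the lines in which both were tested, by Pearson correlation of log2 values minus the control mean of the line, were KIF1A (0.9924), TRAF1 (0.9899), SNHG29 (0.9872), GAS5 (0.9871) and HID1 (0.9843). For SNHG29 and GAS5 these lines were MIA PaCa-2 and PATU8988T, and for the other genes PANC1 and MIA PaCa-2. Those most like TGFB2 in PANC1 and PATU8988T were CHAC1 (0.9932), MTHFD2 (0.9909), C2CD3 (0.9848), MMADHC (0.9808) and NT5C2 (0.9798). The points share libraries, and each value is set mostly by the difference between the knockdown and control groups. INHBE was tested in 1 line, so no genes were ranked for it.

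Genes of the superfamily beyond these 10 were taken from 6 lists of 133 genes. These are tested below, although the lists were written with earlier results of the same libraries known. In PANC1 61 of them were tested, and 23 were higher and 24 lower at an adjusted p below 0.05, against 40.1% and 32.2% of all genes. With the 2-fold threshold, 1 was called higher and 4 lower. In MIA PaCa-2 50 were tested, 14 were higher and 13 lower, against 18.7% and 21.7% of all genes, and 3 were called higher and 5 lower. Those lower include PMEPA1 and BAMBI, which passed the filter in MIA PaCa-2 only through their control libraries. Without MIA PaCa-2 control replicate 2, 18 were higher and 21 lower there, and 4 were called higher and 5 lower. In PATU8988T 46 were tested, 6 were higher and 17 lower, against 20.9% and 18.5% of all genes, and 1 was called, lower.

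TGFBR1, the type I receptor of TGF-β, did not pass the test in any line, with log2 fold changes of 0.03, 0.03 and -0.15 in PANC1, MIA PaCa-2 and PATU8988T (limma, adjusted p = 0.774, 0.925 and 0.145). TGFBR2, the type II receptor, was at 22.7 ± 0.326 FPKM in PANC1 control and 19.8 ± 0.738 FPKM in PATU8988T control (SD, n = 3 each). It was higher after knockdown by 0.18 and 0.22 on the log2 scale (adjusted p = 9.63e-04 and 0.00313). In MIA PaCa-2 TGFBR2 was at 0 FPKM in every control library and at most 0.00772 FPKM after knockdown. ACVR1B, a type I activin receptor, was higher in PANC1 (0.25, adjusted p = 8.41e-04) and in MIA PaCa-2 (0.33, adjusted p = 0.0458), where the adjusted p was up to 0.165 under other settings. The activin type II receptors ACVR2A and ACVR2B stayed at or below 2.38 FPKM in every library, and ACVR2B did not reach the filter in any line. Of the BMP receptors, BMPR1A was higher in PANC1 (0.22, limma adjusted p = 0.00202). In MIA PaCa-2 its change was 0.08 (adjusted p = 0.786), or -0.16 without control replicate 2 (adjusted p = 0.0319). BMPR2 did not pass the test in any line. GFRAL, the receptor of GDF15, was on the receptor list, but its values are not given here. Among 12, 10 and 12 receptors and co-receptors tested, BAMBI in MIA PaCa-2 was the one past the threshold. In PANC1 and PATU8988T 0 were called, 8 and 5 had an unadjusted p below 0.05, and voom called 0.

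SMAD2 and SMAD3, which carry TGF-β and activin signals, were lower in all 3 lines. SMAD2 changed by -0.69, -0.78 and -0.25 on the log2 scale in the PANC1, MIA PaCa-2 and PATU8988T lines (limma, adjusted p = 7.01e-05, 0.0072 and 0.0337). The PATU8988T value had an adjusted p of up to 0.104 under other settings. SMAD3 changed by -0.32, -0.55 and -0.32 (adjusted p = 1.25e-06, 0.00254 and 0.00121). SMAD4 did not pass the test in PANC1 (-0.06, adjusted p = 0.494) or MIA PaCa-2 (-0.19, adjusted p = 0.371). In MIA PaCa-2 without control replicate 2 its change was -0.37 (adjusted p = 7.47e-05). SMAD4 was listed at 0 in all 6 PATU8988T libraries. Among 17, 14 and 16 SMADs and regulators tested, 0 reached a 2-fold change with limma or voom, and 13, 8 and 8 had an unadjusted p below 0.05.

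Binders and processing genes differed by line. CRIM1, a membrane protein that binds BMPs, fell in PANC1 from 45 ± 0.986 to 15.4 ± 0.45 FPKM (SD over 3 libraries). Its log2 fold change was -1.54 (SE 0.0372, limma adjusted p = 5.32e-10). It was lower by less in MIA PaCa-2 (-0.83, adjusted p = 0.00134) and PATU8988T (-0.26, adjusted p = 0.00186). LTBP4, a latent TGF-β binding protein, fell in PANC1 (-1.19, adjusted p = 1.72e-07) and was lower in PATU8988T (-0.50, adjusted p = 3.36e-05). In MIA PaCa-2 its change was 0.12 (adjusted p = 0.751), or 0.44 without control replicate 2 (adjusted p = 0.0107). THBS1, an activator of latent TGF-β, rose in PANC1 from 3.05 to 6.29 FPKM (1.03, adjusted p = 4.81e-06). It was the one pathway gene called higher in PANC1, and it fell short of a 2-fold change with a pseudocount of 1 (0.85), without control replicate 1 (0.95) and without knockdown replicate 3. NOG, the BMP antagonist noggin, rose in MIA PaCa-2 from 5.30 to 14.2 FPKM (1.42, adjusted p = 4.61e-04). It was higher in PANC1 by 0.47 (adjusted p = 8.74e-04). PLAU, urokinase, fell in PANC1 from 142 to 41.4 FPKM (-1.77, adjusted p = 1.3e-10) and rose in MIA PaCa-2 from 14.6 to 36.9 FPKM (1.33, adjusted p = 1.56e-04). In PATU8988T it was lower, at 440 and 292 FPKM (-0.59, adjusted p = 2.45e-06). Of 9, 7 and 6 binders tested 3, 1 and 0 were called, and of 8, 6 and 7 processing genes 1, 1 and 0. In PATU8988T 5 binders and 5 processing genes had an unadjusted p below 0.05, and voom called 0 of either. Of 5, 5 and 1 other ligands tested, 0 were called with limma or voom, and 4, 3 and 1 had an unadjusted p below 0.05.

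Target genes of the pathway were mixed. PMEPA1, induced by TGF-β and an inhibitor of its signalling, fell in PANC1 from 24.4 to 7.75 FPKM (-1.65, limma adjusted p = 5.93e-09) . In MIA PaCa-2 it was at 3.51 and 0.561 FPKM (-2.49). It was below the filter in PATU8988T, at 0.284 to 0.358 FPKM in control and 0.0399 to 0.193 FPKM in knockdown. BHLHE40 rose in MIA PaCa-2 (1.51, adjusted p = 1.72e-04) and was lower in PATU8988T (-0.60, adjusted p = 2.88e-06). ID1, an inhibitor of basic helix-loop-helix factors, fell in MIA PaCa-2 from 136 to 57.2 FPKM (-1.23, adjusted p = 9.64e-04) and in PATU8988T from 6.86 to 2.46 FPKM (-1.45, adjusted p = 8.61e-06). In PANC1 it was higher by 0.21 (adjusted p = 3.28e-05). ID2 and ID3 fell in MIA PaCa-2 (-1.23 and -1.17, adjusted p = 0.00531 and 0.00126) and were higher in PANC1 (0.71 and 0.96, adjusted p = 3.02e-04 and 2.21e-09). BAMBI, a pseudoreceptor, was at 2.42 and 0.673 FPKM in MIA PaCa-2 control and knockdown (-1.79). In MIA PaCa-2 PMEPA1 and BAMBI passed the filter only through their control libraries and so had to differ, and no p is given. Of 14, 10 and 8 targets tested, 1, 6 and 1 were called, and the median log2 fold change was -0.13, -0.79 and -0.28 against 0.06, -0.03 and 0.03 over all genes. Of the 6 in MIA PaCa-2, 4 were above the filter in both groups, and the median there includes PMEPA1 and BAMBI. Without control replicate 2 of that line, 2 were called higher and 5 lower.

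**Figure D4:**
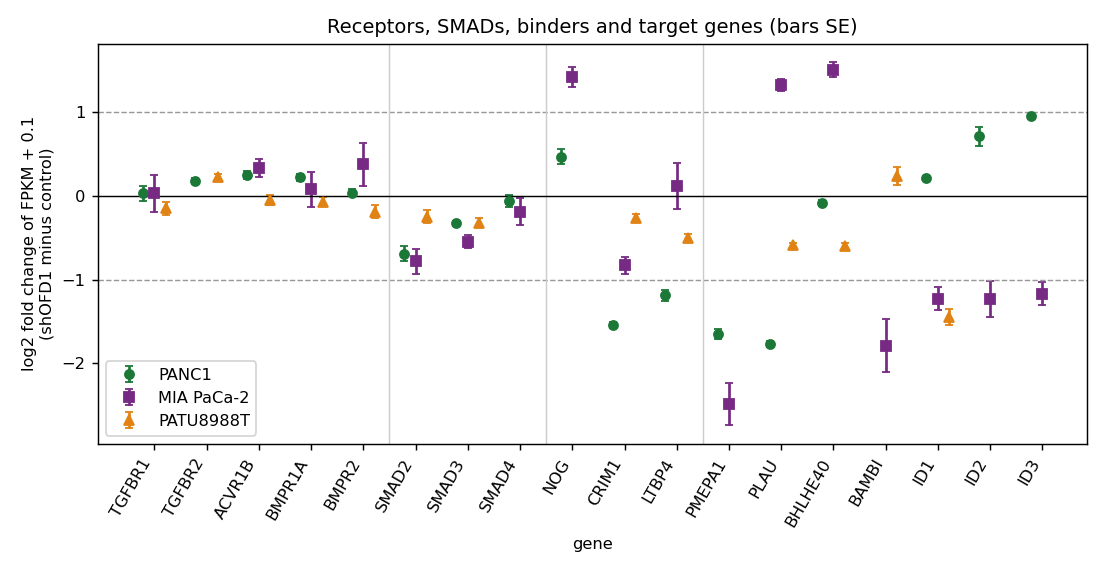
Log2 fold change of FPKM + 0.1 (shOFD1 minus control) with SE for receptors, SMADs, binders and, at the right, targets and the protease PLAU, in the lines where each passed the filter. Dashed lines mark a 2-fold change. SMAD2 and SMAD3 lie below 0 in all lines, and ID1, ID2 and ID3 lie below -1 in MIA PaCa-2 and above 0 in PANC1.

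GDF15 and INHBE are known targets of the ATF4 and CHOP branch of the stress response, so 18 other genes of this branch were set beside them. In PANC1 13 of 16 tested were higher and 1 lower at an adjusted p below 0.05, against 40.1% and 32.2% of all genes. The median log2 fold change was 0.64 against 0.06 over all genes, and 5 were called. In MIA PaCa-2 13 of 14 were higher, against 18.7% of all genes, and 8 were called, with a median of 1.36 against -0.03. Without control replicate 2 of that line, 14 were higher and 10 were called. In PATU8988T 10 of 13 were higher and 2 lower, against 20.9% and 18.5% of all genes, with 3 called higher and 1 lower and a median of 0.55 against 0.03. CHAC1, NUPR1 and ASNS in MIA PaCa-2 and CHAC1 in PATU8988T passed the filter only through their knockdown libraries and so had to differ. No p is given for them, and without them 5 were called in MIA PaCa-2 and 3 in PATU8988T. They are also among the genes counted as higher above, and they enter the medians of their lines. This list and the list of p53 targets below were written with earlier results of the same libraries known.

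ATF3, a stress-induced transcription factor, rose by 1.37, 2.38 and 1.19 in PANC1, MIA PaCa-2 and PATU8988T (limma, adjusted p = 2.36e-07, 1.72e-04 and 1.74e-06). SESN2, which encodes sestrin 2, rose by 1.23, 2.15 and 1.24 (adjusted p = 6.34e-09, 1.81e-04 and 3.19e-06). CHAC1, a glutathione-degrading enzyme, rose in PANC1 by 1.20 (adjusted p = 1.31e-08) and went from 0.802 to 2.34 FPKM in MIA PaCa-2 and from 0.512 to 4.06 FPKM in PATU8988T. DDIT3, which encodes CHOP, was higher by 0.84, 1.28 and 0.84 (adjusted p = 9.62e-08, 0.00196 and 8.68e-07). TRIB3, a pseudokinase, rose in PANC1 (1.03, adjusted p = 9.74e-09) and MIA PaCa-2 (1.80, adjusted p = 5.61e-04) and did not pass the test in PATU8988T (-0.08, adjusted p = 0.245). CTH, an enzyme of cysteine synthesis, rose in PANC1 (1.01, adjusted p = 5.40e-06) and MIA PaCa-2 (2.17, adjusted p = 1.56e-04). In PANC1 TRIB3 was at 0.99 without knockdown replicate 1, and CTH at 0.92 without control replicate 3 and also below 1 without knockdown replicate 2, short of a 2-fold change. NUPR1 was at 0.272 and 2.68 FPKM in MIA PaCa-2 control and knockdown, and the asparagine synthetase gene ASNS at 0.772 and 3.23 FPKM. DDIT4, an inhibitor of mTORC1 signalling, fell in PATU8988T from 286 to 140 FPKM (-1.03, adjusted p = 1.81e-06) and was lower in PANC1 (-0.27, adjusted p = 5.05e-06). Its PATU8988T value was -0.97 without knockdown replicate 1, short of 2-fold. In MIA PaCa-2 DDIT4 was higher by 0.86 (adjusted p = 0.0208), or 1.13 without control replicate 2 (adjusted p = 6.67e-09). Under other settings its adjusted p in MIA PaCa-2 was up to 0.0715. In PANC1 GDF15 was lower, as DDIT4 was, while 13 of the 16 branch genes tested there were higher at an adjusted p below 0.05. Whether GDF15 and these genes are linked was not tested.

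Of 16 p53 target genes, 8 of 14 tested were higher in PANC1 and 4 lower at an adjusted p below 0.05, against 40.1% and 32.2% of all genes. In MIA PaCa-2 8 of 15 were higher and 1 lower, against 18.7% and 21.7%, and in PATU8988T 6 of 16 and 1, against 20.9% and 18.5%. In MIA PaCa-2 5 were called higher and 1 lower. Without control replicate 2, 10 were higher and 2 lower there at an adjusted p below 0.05, with 4 called higher and 1 lower. CDKN1A, which encodes p21, rose there from 1.33 to 10.7 FPKM (2.95, limma adjusted p = 2.02e-04), and BBC3, which encodes PUMA, from 1.27 to 6.43 FPKM (2.41, adjusted p = 0.00371). GADD45A, a growth arrest gene, rose by 1.41 (adjusted p = 1.75e-04) and ZMAT3 by 1.16 (adjusted p = 0.00479), or 0.94 without control replicate 2, below a 2-fold change. TP53INP1 was at 0.336 and 1.9 FPKM, passed the filter only through its knockdown libraries and so had to differ. It is among the genes counted above, and of the 6 called in MIA PaCa-2, 5 were above the filter in both groups. XPC, a DNA repair gene, fell by 1.12 on the log2 scale (adjusted p = 0.00103). In PANC1 SESN1 was the one called (1.25, adjusted p = 9.64e-08). In PATU8988T 0 were called with limma or voom, and 11 had an unadjusted p below 0.05.

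The difference of the knockdown effect between lines was tested as an interaction term, with the 18 libraries fitted together over 9083 genes that passed the filter in each line. Of 35 genes of the 6 superfamily lists tested, 8 differed by over 2-fold between MIA PaCa-2 and PANC1, 3 between PATU8988T and PANC1 and 5 between PATU8988T and MIA PaCa-2. Of 26 tested from the ATF4 and CHOP and the p53 lists, 7, 4 and 9 did. Among all 9083 genes these shares were 4.45%, 4.32% and 8.48%. Each count from the ATF4 and CHOP and the p53 lists includes CHAC1 or TP53INP1, which passed the filter only through knockdown libraries in a line. Without MIA PaCa-2 control replicate 2, the pairs with this line gave 7 and 4 superfamily genes and 8 and 11 of the others. PLAU differed by 3.10 on the log2 scale between MIA PaCa-2 and PANC1 (SE 0.0566, limma adjusted p = 2.34e-15), higher in MIA PaCa-2. ID1 differed by -1.44 (SE 0.153, adjusted p = 2.36e-06) for the same pair. CDKN1A differed by 2.30 between MIA PaCa-2 and PANC1 (SE 0.18, adjusted p = 1.09e-07) and by -2.75 between PATU8988T and MIA PaCa-2 (SE 0.18, adjusted p = 6.88e-09).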

How the data were processed

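RNA-seq was done on 3 control and 3 knockdown libraries of each of 3 lines, and the methods and the labels name different extraction and library kits. Per the paper, the authors mapped reads with HISAT2, counted them with HTSeq-count, tested counts with DESeq2 and calculated FPKM. The submitters' processing notes list the builds GRCm38, mm10 and hg38, and which one made the table was not given in the sources used here. The authors deposited 1 table of FPKM values, and no column of it was left unused. Because FPKM is not a count, limma 3.58.1 in R 4.3.3 (lmFit, eBayes with a variance trend) was fitted to log2(FPKM + 0.1) within each line, for genes with a mean of at least 1 FPKM, in place of the authors' count test. Adjustment was by Benjamini-Hochberg over every gene tested in a line. Calls needed an adjusted p below 0.05 together with a change of over 2-fold up or below 0.5 of control. All fold changes refer to FPKM with the pseudocount added.

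Whole reads per gene were recovered from the FPKM steps, within 0.0001 of a whole number, for 99.99% of 16308 genes above 0 in PANC1, for 20604 of 20604 in MIA PaCa-2 and for 21497 of 21498 in PATU8988T. Intervals of read ratios are exact Clopper-Pearson intervals at 95% and cover counting error only. They leave out the spread between libraries and were not used as a test of the 10 genes. On simulated data limma called 199, 200 and 200 of 200 changed genes in PANC1, MIA PaCa-2 and PATU8988T and 0 unchanged ones. An unchanged gene also had to pass the 2-fold threshold to be called, so the 0 does not measure false calls by p alone. The size of the planted changes and the simulated spread are not given here. The counts therefore check that the fit ran as intended and do not measure sensitivity in the real libraries. The members and gene lists were chosen with earlier results of these data known. The rule for named genes took the 10 members, OFD1, INHBC and the called genes of each list (up to 8 per list and line). It also took SMAD2, SMAD3, SMAD4, the receptors of the members and the 5 genes most like each of GDF15 and TGFB2. Values of GFRAL, which is among those receptors, are not given. Gene positions came from GENCODE on GRCh38. Alternatives were other pseudocounts and filters, no variance trend, rescaled libraries, voom on recovered reads, the replicate block and each library left out, and, chosen after seeing the data, the fit between lines without MIA PaCa-2 control replicate 2. One gene of the target list is not reported here, and the list counts leave it out.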

Additional observations from a re-analysis of the deposited data

Results flagged for a closer look

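Effects of named genes that differed between lines are listed here, as log2 fold changes of one line minus those of another. GDF15 was lower in all knockdown libraries of PANC1 and higher in all of MIA PaCa-2 and PATU8988T, a difference of 4.93 and 0.88 from PANC1, and INHBE differed by 4.67 between MIA PaCa-2 and PANC1. These differences were not tested, because the genes were chosen on these contrasts. BAMBI, ID3 and ID2 were lower in all knockdown libraries of MIA PaCa-2 and higher in all of PANC1, with differences of -2.50, -2.13 and -1.94 that were not tested, since the genes were below the filter in a line. BAMBI in PANC1 was only at 0 to 0.131 FPKM in control and 0.138 to 0.218 FPKM in knockdown. Its difference therefore depends on the pseudocount of 0.1 FPKM, and in MIA PaCa-2 it passed the filter only through control libraries.

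The interaction test called the rest of those listed, at an adjusted p below 0.05 and a difference over 2-fold. Between MIA PaCa-2 and PANC1 the effect was higher in MIA PaCa-2 for PLAU (3.10), BBC3 (2.30), CDKN1A (2.30), TP53INP1 (1.72), BHLHE40 (1.59), LTBP4 (1.31), CTH (1.15), DDIT4 (1.13) and ATF3 (1.01), and lower for ID1 (-1.44). Between PATU8988T and PANC1 it was higher in PATU8988T for CHAC1 (1.57), CRIM1 (1.28), PLAU (1.18) and XPC (1.01), and lower for ID1 (-1.66), SESN1 (-1.12) and TRIB3 (-1.11). Between PATU8988T and MIA PaCa-2 it was higher in PATU8988T for CHAC1 (1.33) and XPC (1.27). It was lower for CDKN1A (-2.75), BBC3 (-2.23), BHLHE40 (-2.12), TP53INP1 (-1.99), PLAU (-1.92), DDIT4 (-1.89), TRIB3 (-1.88), CTH (-1.36) and ATF3 (-1.19). The test also called 5 genes of the lists between MIA PaCa-2 and PANC1, and 3 between PATU8988T and MIA PaCa-2, that the rule for named genes did not take. In MIA PaCa-2, CHAC1 and TP53INP1 passed the filter only through knockdown libraries, and in PATU8988T CHAC1 did. The filter therefore bears on every difference listed for CHAC1 and TP53INP1. Without MIA PaCa-2 control replicate 2, which stands apart from the other controls, every difference listed here from the interaction test stayed called, and SESN2 was called as well, at 1.06 (MIA PaCa-2 minus PANC1) and -1.05 (PATU8988T minus MIA PaCa-2).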

How the results depend on the processing

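No alternative reversed a direction that had passed the test. With a pseudocount of 1, genes called went from 719, 834 and 107 to 442, 484 and 34 (PANC1, MIA PaCa-2, PATU8988T). With a mean of at least 5 FPKM they went to 416, 448 and 30, of 7858, 7171 and 7147 genes tested. With no filter, 237 were called in PATU8988T, 1 member (BMP2) in PANC1, and 8 pathway genes in PANC1 (from 5) and 3 in PATU8988T. With the 5 FPKM filter, 0 pathway genes and 0 members were called in PATU8988T, and 4 ATF4 and CHOP genes and 3 p53 targets in MIA PaCa-2. Differences between lines called among genes of all 8 lists, the ATF4 and CHOP and the p53 lists included, went from 15, 7 and 14 to 26 (MIA PaCa-2 and PANC1), 11 (PATU8988T and PANC1) and 30 (PATU8988T and MIA PaCa-2) with no filter, and 4 (PATU8988T and PANC1) and 9 (PATU8988T and MIA PaCa-2) with a pseudocount of 1. OFD1 in MIA PaCa-2 kept its direction at -0.61 with no filter (adjusted p = 0.0504) and ranged from -0.76 to -0.52 with a library left out. GDF15 in MIA PaCa-2 was 3.17 and INHBE 2.80 with a pseudocount of 1.

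Replicate numbers did not pair the libraries: deviations of same-numbered libraries correlated between -0.11 and 0.13. With the replicate block, 722, 834 and 107 genes were called in PANC1, MIA PaCa-2 and PATU8988T, and 0, 2 and 1 members. Among named genes the block took SMAD2 in PATU8988T (adjusted p = 0.0586) and ACVR1B in MIA PaCa-2 (0.107) above 0.05, and BHLHE40 in PANC1 (0.0337) and BBC3 in PATU8988T (0.0397) below it. Depth limits BMP2, BMP4, FST, INHBA and, outside MIA PaCa-2, INHBE, which rest on few reads.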
